A study of Mus musculus with 4 samples.

Results

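The nuclear genes for the subunits of respiratory complexes II, III, IV and V were examined in mouse T helper 2 (Th2) cells given dopamine or phosphate-buffered saline (PBS). Genes were taken by symbol: names starting with Uqcr, Atp5, Cox4, Cox5, Cox6, Cox7 or Cox8, and Sdha, Sdhb, Sdhc, Sdhd and Cyc1, without names holding "-ps". This gave 45 of the 26207 genes in the table, of which 4 belong to complex II, 9 to complex III, 15 to complex IV and 15 to complex V. The other 2, Atp5s and Atp5sl, carry an Atp5 name but are not subunits. The study compared bulk RNA-seq libraries of Th2 cells whose source is given as spleen. One group of 2 libraries received 10 µM dopamine and the other group of 2 received PBS. The sources used here name no strain, age or exposure time. Nor do they say if the paired libraries came from different mice or cultures. Each p-value thus reflects library-to-library spread alone, mostly pooled over genes, which may be technical.

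Complex II, succinate dehydrogenase, feeds electrons from succinate to ubiquinone and also works in the citric acid cycle. Complex III passes electrons from ubiquinol to cytochrome c, and complex IV, cytochrome c oxidase, passes them to oxygen. Complex V, ATP synthase, uses the proton gradient built by the chain to make ATP. All subunits of complex II are nuclear, whereas complexes III, IV and V also hold subunits encoded in mitochondrial DNA. Activated helper T cells are known to enlarge their mitochondrial mass and respiration as they grow and divide.

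Gene-assigned reads, recovered from the table, came to 14167357 and 11492182 in the libraries dopamine A and dopamine B, against 5717408 and 13241168 in PBS A and PBS B. The 6 markers of helper T cells (Cd4, Trac, Trbc2 and the Cd3 genes) summed to 25935 and 26597 normalized counts in dopamine and 23427 and 24887 in PBS, so they were abundant throughout, and 3 of the 6 rose while Trac fell. With the libraries rescaled on abundant genes or with edgeR and TMM scaling, 0 of the 6 rose and 1 fell. The Th2 cytokine genes Il4, Il5 and Il13 rose and Gata3 did not pass the test. Markers of other cells moved with the groups as well. All 7 basophil and mast cell markers fell, with sums of 683.5 and 600.1 normalized counts in dopamine against 2375 and 2028 in PBS. All 4 platelet markers fell (sums of 449.8 and 389 in dopamine against 1495 and 1305 in PBS), as did 4 of 5 myeloid markers (122 and 117 in dopamine against 401 and 455 in PBS) and 2 of 3 red cell markers (68.7 and 47.6 in dopamine against 352 and 266 in PBS). Of the B cell markers 3 of 4 rose (322 and 313 in dopamine against 129 and 103 in PBS), and of the CD8 T cell markers 1 of 2 (209 and 206 in dopamine against 107 and 95 in PBS). The part of these cells in the results below was not tested. In bulk libraries, fewer cells of a type and less RNA per cell cannot be told apart.

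Most of the genes stood higher in the dopamine libraries, by less than 2-fold. Values are the authors' normalized read counts. A log2 fold change is the dopamine mean minus the PBS mean of log2(value + 1), given with its standard error (SE). The test was limma, with p-values adjusted by Benjamini-Hochberg across the whole table at a threshold of 0.05. By that test 31 of the 45 rose, 1 fell and 13 did not pass. Of all genes tested, 14.3% rose and 7.0% fell. Nearly all members are abundant, 40 of 45 averaging 100 or more normalized counts, and among all genes that abundant 39.1% rose and 7.9% fell. In 37 of the 45, both dopamine libraries lay above both PBS libraries, which held for 28.5% of all genes and for 60.8% of genes averaging 100 or more normalized counts. It also held for 80.0% of the 910 genes with a mean over 500 and a transcript of at most 2000 bases. In 3 members both dopamine libraries lay below both PBS libraries, which held for 30.4% of all genes and 15.4% of the abundant ones, and in 5 the groups overlapped. The authors' deposited table called 30 members higher and 1 lower, where 19.6% and 5.53% of the genes with an adjusted p were called. It gave no adjusted p for 3 members, and all 31 of its calls had the same direction here.

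The scaling of the libraries bears on these counts. Under the authors' size factors the median log2 fold change over all genes was -0.08, but over genes averaging 100 or more normalized counts it was 0.20. With the libraries rescaled so that these abundant genes had a median ratio of 1, 22 members rose and 2 fell, beside 6.89% and 12.1% of all genes. With the GC and length correction, a loess fit in each library that 42 members could enter, 23 rose and 4 fell, beside 24.7% and 14.7%. Members are also short, with a median transcript of 809 bases against 3156 bases for genes averaging 100 or more normalized counts. Among the 910 genes with a mean over 500 and a transcript of at most 2000 bases, a class set after the values were seen, 67.4% rose and 5.82% fell, with a median log2 fold change of 0.33. The 32 members in that class held 25 that rose, 78.1%. After rescaling the same shares were 59.4% of the 32 members against 42.1% of the class, with the GC and length correction 56.2% against 39.5%, and with edgeR and TMM scaling 75.0% against 56.4%. The members' share was thus above that of the class in each of these fits, a gap that was not tested.

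**Figure D1:**
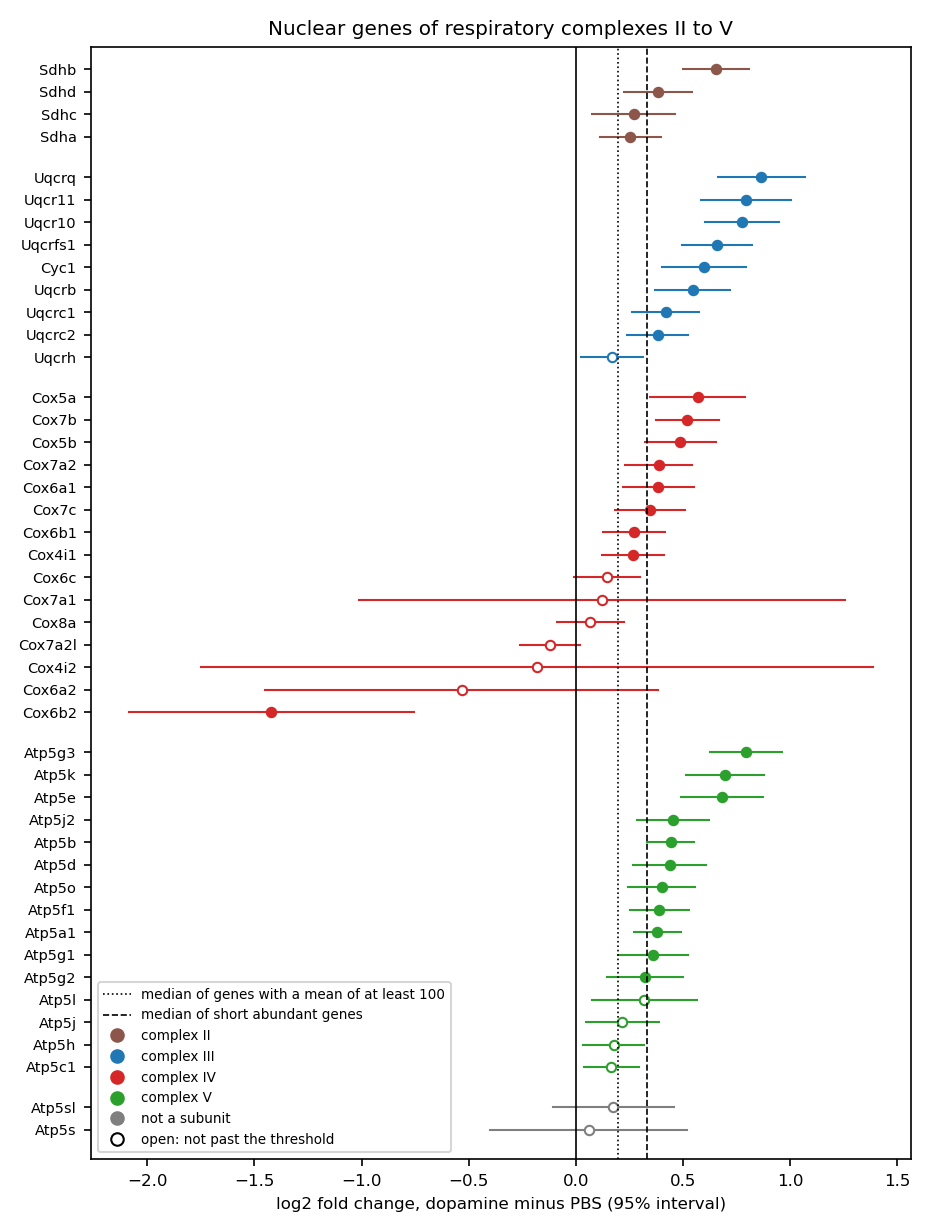
Log2 fold change of each of the 45 genes (x axis, dopamine minus PBS, log2 scale) with its 95% interval, grouped by complex; filled points passed limma's threshold and open points did not. Dotted and dashed lines mark the medians of 0.20 and 0.33 for abundant and for abundant short genes; most genes of complex III lie right of both lines, and those of complex IV lie on both sides of them.

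All 4 subunits of complex II rose, and they did so unevenly. Sdhb, the iron-sulfur subunit of the catalytic head, lies on chromosome 4 at 140961203-140979193 (GENCODE M21, GRCm38). It had 1928 and 2109 normalized counts in dopamine, against 1238 and 1325 in PBS. The groups did not overlap, and the log2 fold change was 0.65 (SE 0.08, adjusted p = 4.31e-09, limma). Sdha, the flavoprotein that oxidizes succinate, had 2416 and 2575 in dopamine and 2035 and 2148 in PBS. Its groups were also apart, by a smaller margin (log2 fold change 0.25, SE 0.07, adjusted p = 0.00616, limma). The ratio of Sdhb to Sdha, which no scaling of a library can alter, was 0.798 and 0.819 in dopamine and 0.609 and 0.617 in PBS. The dopamine ratios therefore lay above both PBS ratios, although these partners form one head. After the GC and length correction the log2 fold changes lay closer, at 0.38 for Sdhb and 0.15 for Sdha.

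The membrane anchors Sdhc and Sdhd hold the heme and the ubiquinone site. Sdhd had 1391 and 1400.2 normalized counts in dopamine, against 1049.8 and 1089 in PBS (log2 fold change 0.38, SE 0.08, adjusted p = 2.20e-04, limma). Sdhc had 633 and 629 in dopamine, against 508 and 539 in PBS (log2 fold change 0.27, SE 0.10, adjusted p = 0.0375, limma). Neither gene's groups overlapped. The calls were not equally firm: Sdhb kept its call in all 15 alternatives (a 2-fold minimum, which no rise met, is counted apart), Sdhd lost it in 1, Sdha in 6 and Sdhc in 11. With the abundant genes rescaled to a median ratio of 1, Sdhb alone of the 4 passed, at 0.46, and the other 3 stayed between 0.059 and 0.19.

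The highest values were in complex III. Of its 9 nuclear genes 8 rose, and each of those 8 calls held in all 15 alternatives. The redox subunits, which carry the electrons, were Cyc1, cytochrome c1, and Uqcrfs1, the Rieske iron-sulfur protein. Uqcrfs1 had 1469 and 1455 normalized counts in dopamine, against 900.3 and 952 in PBS (log2 fold change 0.66, SE 0.08, adjusted p = 1.25e-08, limma). Cyc1 had 771 and 906 in dopamine, against 511 and 597 in PBS (log2 fold change 0.60, SE 0.10, adjusted p = 5.27e-06, limma). Both genes had groups that did not overlap, and the spread within each group was widest for Cyc1.

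The small subunits, which surround the catalytic core, held the largest rise of the 45 genes, in Uqcrq. Uqcrq, a ubiquinone-binding small subunit on chromosome 11 at 53427922-53430831, had 645 and 711 normalized counts in dopamine and 384 and 359 in PBS (log2 fold change 0.87, SE 0.10, adjusted p = 3.90e-09, limma). Uqcr11 had 611 and 608 in dopamine and 326 and 377 in PBS (log2 fold change 0.80, SE 0.10, adjusted p = 5.59e-08, limma). Uqcr10 had 1142 and 1282 in dopamine and 696 and 715 in PBS (log2 fold change 0.78, SE 0.09, adjusted p = 1.23e-09, limma). In each of these genes the lower dopamine library was well above the higher PBS library. Uqcrb, which also lines the ubiquinone pocket, had 1284 and 1126 in dopamine and 785 and 863 in PBS (log2 fold change 0.55, SE 0.09, adjusted p = 3.05e-06, limma). For Uqcrb, 43.2% of the 50-base stretches of its transcripts occur in other genes, so its reads may have been divided among copies.

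The core proteins Uqcrc1 and Uqcrc2, relatives of mitochondrial processing peptidases, changed less. Uqcrc1 had 1685 and 1912 normalized counts in dopamine, against 1344 and 1337 in PBS (log2 fold change 0.42, SE 0.08, adjusted p = 3.98e-05, limma). Uqcrc2 had 2594 and 2449 in dopamine, against 1931 and 1933 in PBS (log2 fold change 0.38, SE 0.07, adjusted p = 3.81e-05, limma). The one gene of complex III that did not pass was Uqcrh, the acidic hinge protein next to cytochrome c1. It had 2685 and 2555 in dopamine, against 2186 and 2478 in PBS, groups that did not overlap but came close to each other (log2 fold change 0.17, 95% interval 0.03 to 0.31, adjusted p = 0.0839, limma). Its sign turned to -0.025 on rescaling and to -0.16 after correction for GC content and length, where it was called lower (adjusted p = 0.0415, limma). The ratio of Uqcrq to Uqcrh was 0.240 and 0.278 in dopamine, against 0.176 and 0.145 in PBS, and no scaling of a library alters it. These genes had the highest and lowest log2 fold changes of the complex. A differing ratio therefore follows from their values and adds no separate support.

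**Figure D2:**
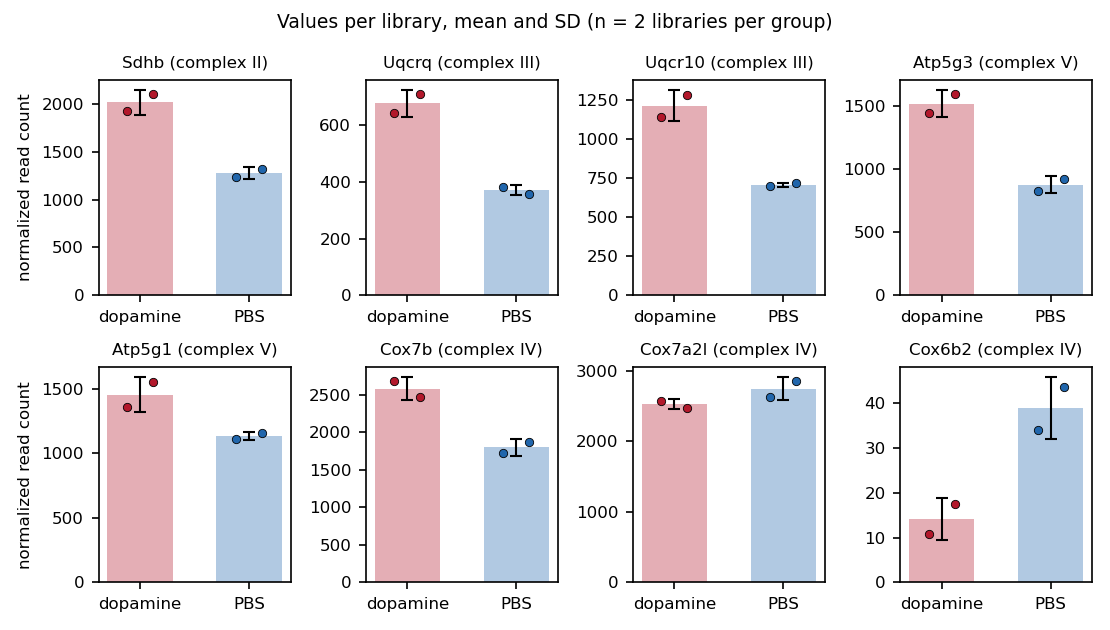
Normalized read counts of 8 genes in dopamine (red, left bar) and PBS (blue, right bar); bars are means with SD of n = 2 libraries and points are libraries. Sdhb, Uqcrq, Uqcr10, Atp5g3, Atp5g1 and Cox7b lie higher in dopamine, Cox6b2 lies lower, and Cox7a2l differs little.

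Complex IV was the most mixed. Of its 15 genes 8 rose, 1 fell and 6 did not pass. Cox5a and Cox5b, which sit on the matrix side, and Cox7b, a small membrane subunit, led the rise. Cox5a had 452 and 487 normalized counts in dopamine, against 338 and 296 in PBS (log2 fold change 0.57, SE 0.11, adjusted p = 8.05e-05, limma). Cox5b had 1382 and 1622 in dopamine, against 1036 and 1098 in PBS (log2 fold change 0.49, SE 0.08, adjusted p = 1.01e-05, limma). Cox7b had 2685 and 2475 in dopamine, against 1719 and 1876 in PBS (log2 fold change 0.52, SE 0.07, adjusted p = 2.21e-07, limma). No groups overlapped in these genes, and their calls held in all 15 alternatives; of Cox5b transcripts, 25.9% of 50-base stretches occur in another gene.

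The other widely expressed subunits showed smaller log2 fold changes. Cox7a2 and Cox6a1 each had a log2 fold change of 0.39, Cox7c of 0.35, and Cox6b1 and Cox4i1 of 0.27 each. All 5 were called, with both dopamine libraries above both PBS libraries. Cox4i1, the nuclear subunit that binds ATP and tunes the enzyme, had 2507 and 2695 normalized counts in dopamine and 2035 and 2286 in PBS (SE 0.07, adjusted p = 0.00446, limma). Its rise was lost in 7 of 15 alternatives, with 0.074 on rescaling and -0.091 after the GC and length correction, which also turned Cox6a1 to -0.022 and Cox6b1 to -0.055. After the rescaling, Cox6a1, Cox7c, Cox6b1 and Cox4i1 no longer passed, and Cox7a2 did at 0.19. The call of Cox7a2 was lost after the GC and length correction (0.062, adjusted p = 0.425, limma).

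Cox6c and Cox8a did not pass. Cox6c had 1958 and 1730.3 normalized counts in dopamine and 1581 and 1748 in PBS, and the groups overlapped (log2 fold change 0.15, 95% interval -0.01 to 0.30, adjusted p = 0.183, limma). Cox8a, an integral membrane subunit, had 1537 and 1578 in dopamine and 1425 and 1546 in PBS (log2 fold change 0.069, 95% interval -0.09 to 0.22, adjusted p = 0.567, limma). The groups of Cox8a overlapped as well, and after the GC and length correction it was called lower at -0.34 (adjusted p = 1.08e-04, limma). The ratio of Cox7b to Cox8a was 1.75 and 1.57 in dopamine, against 1.21 and 1.21 in PBS. This pair sets a gene that rose against one that did not pass, so the difference restates the values above.

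Cox7a2l differed from its relative Cox7a2. Cox7a2l encodes a form of the COX7A subunit known for joining complexes III and IV into supercomplexes, and lies on chromosome 17 at 83501918-83517330. It had 2578 and 2482 normalized counts in dopamine, against 2638 and 2862 in PBS. Both dopamine libraries were below both PBS libraries by a small margin (log2 fold change -0.12, 95% interval -0.26 to 0.02, adjusted p = 0.231, limma). It was called lower in 5 of 15 alternatives, at -0.31 on rescaling (adjusted p = 1.64e-04, limma), at -0.23 with edgeR and TMM scaling (adjusted p = 0.00441) and at -0.36 after the GC and length correction (adjusted p = 3.64e-05, limma). Cox7a2 had 1517 and 1659 in dopamine, against 1216 and 1209.8 in PBS (SE 0.08, adjusted p = 1.58e-04, limma). The ratio of Cox7a2l to Cox7a2 was 1.70 and 1.496 in dopamine, against 2.17 and 2.37 in PBS, so the supercomplex form made up less of the pair in dopamine. That ratio follows from the opposite order of the libraries in these genes and adds no separate support. Of the 50-base stretches of Cox7a2l, 17.7% occur in other genes.

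The tissue forms were scarce. Cox6b2, the testis form of COX6B on chromosome 7 at 4751792-4753094, was the member that fell. It had 10.8 and 17.5 normalized counts in dopamine, from 14 and 18 reads, against 34.0 and 43.7 in PBS, from 20 and 57 reads. The groups were well apart (log2 fold change -1.42, SE 0.33, adjusted p = 0.00104, limma), but without PBS B the call was lost (adjusted p = 0.0613, limma). Its partner Cox6b1 had 2298 and 2259 in dopamine, against 1796 and 1981 in PBS, so Cox6b2 was a small fraction of the pair. The muscle forms Cox6a2 and Cox7a1 had at most 15.3 and 8.49 normalized counts in any library, and Cox4i2, known from lung, at most 5.1. None of those 3 passed (log2 fold changes -0.53, 0.12 and -0.18, with intervals as wide as -1.75 to 1.39), so a change was not detectable at this depth. Striated muscle markers had sums of 27.0 and 20.4 in dopamine and 73.0 and 32.2 in PBS, with 1 of 5 called lower (Myh6), and 0 of the 4 testis markers had a row; their part in these values was not tested.

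Complex V held the most abundant genes. Per kilobase of transcript, Atp5b, the catalytic beta subunit, had the highest level of the 45, at 8648 normalized counts in dopamine and 6353 in PBS. Atp5a1, the alpha subunit, had 5235 in dopamine and 4018 in PBS on the same scale. Of the 15 genes 11 rose and 4 did not pass, and in all 15 both dopamine libraries lay above both PBS libraries. That order held for 60.8% of genes averaging 100 or more normalized counts. It held for 80.0% of those with a mean over 500 and a transcript of at most 2000 bases. The 2 subunits that form the catalytic ring moved together. Atp5b had 15735 and 17406 normalized counts in dopamine, against 11930.0 and 12416 in PBS (log2 fold change 0.44, SE 0.05, adjusted p = 1.63e-08, limma). Atp5a1 had 12985 and 13947 in dopamine, against 10116 and 10559 in PBS (log2 fold change 0.38, SE 0.05, adjusted p = 4.68e-07, limma). Their ratio, Atp5b to Atp5a1, was 1.21 and 1.25 in dopamine and 1.18 and 1.18 in PBS, a small difference with no overlap.

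In the central stalk, Atp5e, the epsilon subunit, had 766 and 820.5 normalized counts in dopamine and 469 and 519 in PBS (log2 fold change 0.68, SE 0.10, adjusted p = 2.34e-07, limma). Atp5d, the delta subunit, had 1061 and 1126 in dopamine and 807 and 804 in PBS (log2 fold change 0.44, SE 0.08, adjusted p = 8.02e-05, limma), with 0.14 and no call after the GC and length correction (adjusted p = 0.0819, limma). Atp5c1, the gamma subunit that turns inside the head, had 4173 and 4207 in dopamine and 3617 and 3857 in PBS. Its groups were apart, yet it did not pass (log2 fold change 0.17, 95% interval 0.04 to 0.29, adjusted p = 0.0555, limma), and it stood at -0.030 on rescaling and -0.022 after the GC and length correction. In the peripheral stalk, which holds the head still, Atp5o and Atp5f1 rose by 0.40 and 0.39 on the log2 scale. Atp5f1 kept its call in all 15 alternatives, whereas that of Atp5o was lost without PBS A and after the GC and length correction (0.093, adjusted p = 0.244, limma). Atp5h, subunit d, had 2317 and 2498 in dopamine and 2134 and 2121 in PBS (log2 fold change 0.18, 95% interval 0.04 to 0.32, adjusted p = 0.0656, limma), and Atp5j had 0.22 (adjusted p = 0.0623, limma); Atp5h turned to -0.018 on rescaling, and after the GC and length correction Atp5h was at -0.13 and Atp5j at -0.11. Reads of Atp5h are uncertain, since 47.9% of its 50-base stretches occur in other genes, and Atp5j shares an exon stretch with Gabpa on the opposite strand.

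Among the membrane subunits, Atp5k, subunit e, had 911 and 948 normalized counts in dopamine and 552 and 593 in PBS (log2 fold change 0.70, SE 0.09, adjusted p = 4.83e-08, limma). Atp5j2, subunit f, had 1365 and 1464 in dopamine and 955 and 1117 in PBS (log2 fold change 0.45, SE 0.08, adjusted p = 4.16e-05, limma). Atp5l, subunit g, had 358 and 300.03 in dopamine and 279 and 247 in PBS, and narrowly missed the threshold (log2 fold change 0.32, 95% interval 0.08 to 0.56, adjusted p = 0.0512, limma). For Atp5l 68.5% of 50-base stretches occur in other genes, the highest share of any member. Atp5s, a coupling factor related gene, and Atp5sl, now called Dmac2 and known for complex I assembly, did not pass, at 0.062 and 0.18.

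The c ring rotates as protons cross the membrane, and in mammals 3 genes, Atp5g1, Atp5g2 and Atp5g3, make the same mature c protein with different import leaders. Atp5g3, on chromosome 2 at 73908447-73911326, had 1441 and 1591 normalized counts in dopamine, against 826 and 920.2 in PBS (log2 fold change 0.80, SE 0.08, adjusted p = 2.53e-10, limma). Atp5g1 had 1364 and 1551 in dopamine, against 1111 and 1155 in PBS (log2 fold change 0.36, SE 0.08, adjusted p = 6.72e-04, limma). Atp5g2 had 914 and 1070.0 in dopamine, against 775 and 806 in PBS (log2 fold change 0.32, SE 0.09, adjusted p = 0.0058, limma). All 3 rose with groups apart, but of the 3 calls only that of Atp5g3 held in all 15 alternatives; Atp5g1 lost its call in 4 of 15 and Atp5g2 in 5, turning to -0.11 after the GC and length correction. The ratio of Atp5g3 to Atp5g1 was 1.06 and 1.03 in dopamine, against 0.743 and 0.796 in PBS. Atp5g3 thus exceeded Atp5g1 in reads in dopamine and fell short of it in PBS, whereas Atp5g2 to Atp5g1 was 0.670 and 0.690 in dopamine and 0.697 and 0.698 in PBS. Per kilobase of transcript, Atp5g3 was above Atp5g1 in both groups, at 2110 against 545 in dopamine and 1215 against 424 in PBS. After the GC and length correction their log2 fold changes lay closer, at 0.49 for Atp5g3 and 0.32 for Atp5g1. Of the 50-base stretches of Atp5g1, 10.6% occur in other genes.

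Because these 3 genes make one protein from separate promoters, the stretches upstream of their RefSeq starts are shown, with those of 2 genes each of complexes III and II that rose: Uqcr10, Uqcr11, Sdhb and Sdhd. Bases inside a GENCODE M21 exon of any gene were left out, which took part of the 200 bases before the start of all but Atp5g3 and Uqcr10. Each is written 5′ to 3′ on the gene's strand (plus for Sdhb, minus for the others; RefSeq, GRCm38.p6), at chr2:73911327-73911526, chr11:96075671-96075831, chr15:102671128-102671247, chr11:4704345-4704544, chr10:80406831-80407021, chr4:140961071-140961202 and chr9:50603850-50603909, in the order given. Capitals mark matches to CAAGGTCA, a core bound by estrogen-related receptors (ERR), or to CCGGAAG, a core bound by GABPA, on either strand.
Atp5g3: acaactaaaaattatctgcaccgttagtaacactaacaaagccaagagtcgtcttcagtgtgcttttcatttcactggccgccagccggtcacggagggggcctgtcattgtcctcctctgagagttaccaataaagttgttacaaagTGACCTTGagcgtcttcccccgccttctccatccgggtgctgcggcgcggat
Atp5g1: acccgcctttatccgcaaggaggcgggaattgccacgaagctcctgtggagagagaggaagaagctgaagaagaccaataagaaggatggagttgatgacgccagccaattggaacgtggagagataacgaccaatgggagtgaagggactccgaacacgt
Atp5g2: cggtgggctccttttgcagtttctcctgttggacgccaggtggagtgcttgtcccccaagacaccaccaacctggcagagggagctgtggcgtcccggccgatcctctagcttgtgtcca
Uqcr10: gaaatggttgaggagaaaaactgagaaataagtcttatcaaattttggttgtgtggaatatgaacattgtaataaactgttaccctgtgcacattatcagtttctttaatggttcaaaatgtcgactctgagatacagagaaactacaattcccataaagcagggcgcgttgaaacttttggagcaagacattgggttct
Uqcr11: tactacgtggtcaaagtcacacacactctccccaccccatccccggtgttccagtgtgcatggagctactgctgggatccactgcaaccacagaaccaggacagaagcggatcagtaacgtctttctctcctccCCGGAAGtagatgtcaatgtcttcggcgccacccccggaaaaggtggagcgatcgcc
Sdhb: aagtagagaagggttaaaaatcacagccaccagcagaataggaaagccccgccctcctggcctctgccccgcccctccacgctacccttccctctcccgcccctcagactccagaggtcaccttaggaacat
Sdhd: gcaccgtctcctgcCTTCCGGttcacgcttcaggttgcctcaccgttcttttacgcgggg
Atp5g3 held an ERR core that starts 52 bases before the start of transcription, written here as its reverse complement. Uqcr11 held a GABPA core starting 66 bases before the start and Sdhd one starting 46 bases before it, the second as its reverse complement. No match was in the stretches shown of Atp5g1, Atp5g2, Uqcr10 or Sdhb. In the longer windows described next, which include bases not shown, Atp5g2, Atp5g3 and Sdhd held an NRF1 core, Sdhb a GABPA core and Sdhd an ERR core. Neither a match nor its absence shows whether a factor binds.

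Promoter windows from 250 bases before to 50 bases after the RefSeq start were available for 35 of the 45 genes. The NRF1 core, GCGC, any base, then TGCGC, was in 10 of the 35 windows (28.6%), against 5.19% of 27025 genes with a window and 14.0% of the 6646 of them averaging 100 or more. CCGGAAG was in 12 (34.3%), against 9.93% and 24.6%. AAGATGG, a YY1 core, was in 5 (14.3%), against 7.28% and 9.60%, and CAAGGTCA was in 3 (8.57%), against 1.76% and 1.22%. Both strands were searched and no motif's letters contain another's. The NRF1 core was in 6 of 14 windows of complex V, 2 of 3 of complex II, 1 of 5 of complex III and 1 of 11 of complex IV. These are counts of letters, given with no test.

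Set side by side, the median log2 fold changes were 0.33 in complex II, 0.60 in complex III, 0.27 in complex IV and 0.39 in complex V, beside -0.08 over all genes. Without the 4 tissue forms complex IV stood at 0.35. By the median over genes in each library, complex III lay 0.64 and 0.65 above the PBS mean in dopamine, with PBS libraries at -0.04 and 0.04, and complex IV lay 0.24 and 0.26 above it, with PBS at -0.06 and 0.06. Rescaled on abundant genes, the medians were 0.13, 0.40, 0.074 and 0.20 for complexes II, III, IV and V, and the GC and length correction gave 0.17, 0.36, -0.038 and 0.19, which turned the sign for complex IV. Complex III had the highest median of the 4 in 17 of 17 settings, and complex IV the lowest in 16 of 17. Settings that only rescale the libraries shift all 4 medians by about the same amount, and the replicate block leaves them unchanged. Agreement among those settings therefore adds no separate support. The rank of complex IV depended in part on its scarce tissue forms. On its 11 genes averaging 100 or more normalized counts, complex IV stood at 0.348, above the 0.327 of complex II. The same held after rescaling (0.152 against 0.132) and with edgeR and TMM scaling (0.247 against 0.220). With the GC and length correction those 11 genes still had the lowest median, at -0.022. The difference between complexes was not tested, since subunits share libraries and are not replicates.

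**Figure D3:**
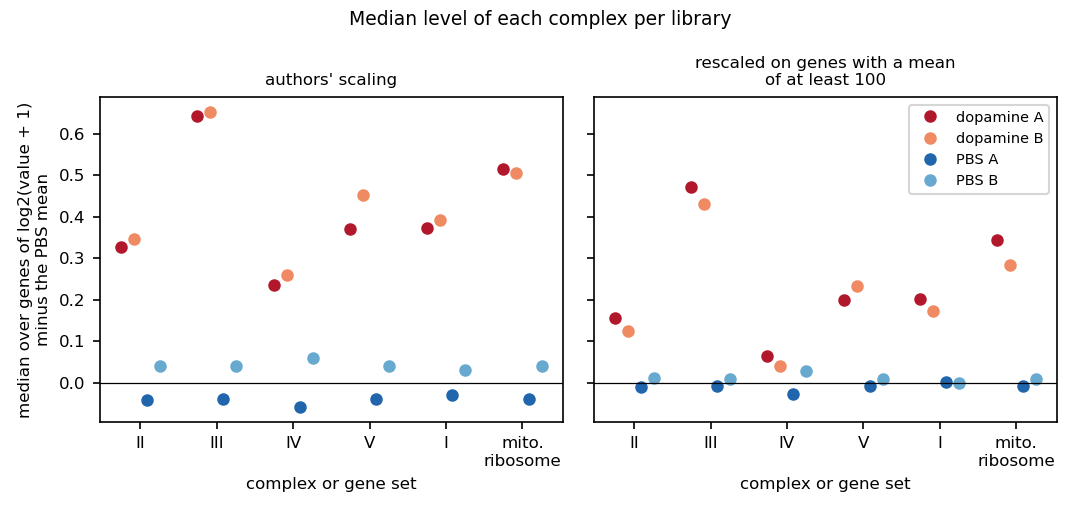
Median over the genes of each set of log2(value + 1) minus the PBS mean (y axis, log2 scale) in each library. Sets are complexes II to V, complex I (taken by Nduf names) and mitochondrial ribosomal proteins. Scaling is the authors' (left) or on genes averaging 100 or more normalized counts (right). Complex III stood at 0.64 and 0.65 in dopamine on the left and at 0.47 and 0.43 on the right, and complex IV stood at 0.065 and 0.040 on the right.

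The shares called can be set against genes of like abundance and length. Among genes with a mean over 500 and a transcript of at most 2000 bases, 7 of 8 in complex III rose, 9 of 12 in complex V, 7 of 10 in complex IV and 2 of 2 in complex II, where 67.4% of all such genes rose. After rescaling 42.1% of such genes rose and 12.4% fell, and the counts were 7 of 8, 8 of 12, 3 of 10 and 1 of 2 for complexes III, V, IV and II. With the GC and length correction 39.5% rose and 17.0% fell, and the counts were 7 of 8, 6 of 12, 3 of 10 and 2 of 2. Complex III therefore kept its 7 calls under each of these, while 3 of 10 in complex IV was below the background after rescaling and after the correction. That position depended on the cut at a mean of 500. Among genes averaging 100 or more with a transcript of at most 2000 bases, 4 of 11 in complex IV rose (36.4%) in both fits. Of all such genes 30.4% rose after rescaling and 28.8% after the correction, so complex IV stood above that background. Complex II has only 2 genes with a mean over 500 and a transcript of at most 2000 bases. Its share, which ranked first in 2 of the 3 fits, thus rests on few values.

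**Figure D4:**
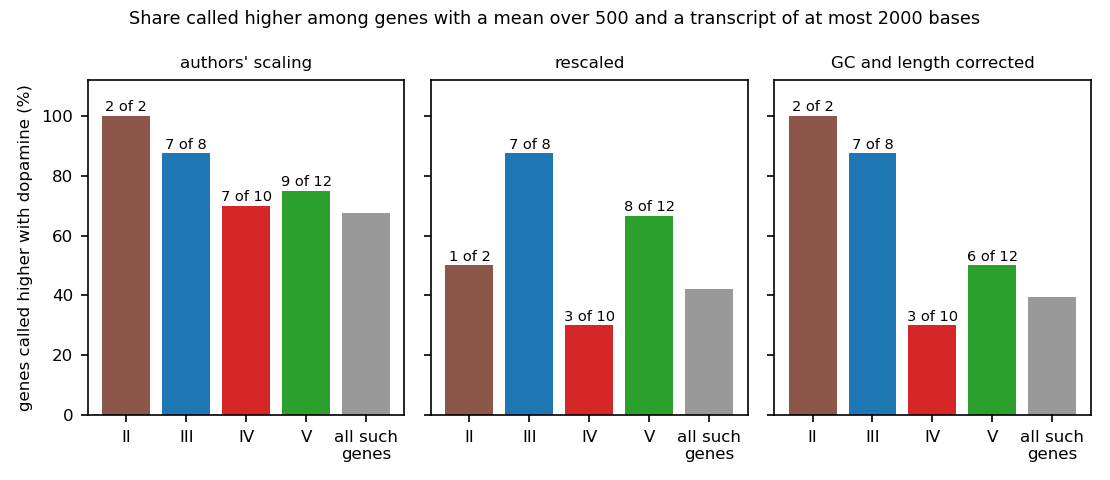
Percent of genes called higher in dopamine (y axis) among genes with a mean over 500 and a transcript of at most 2000 bases, for complexes II to V and for all such genes (grey), in 3 fits. Complex III shows 7 of 8 in each fit, while complex IV shows 7 of 10 under the authors' scaling and 3 of 10 in the others.

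Together the 45 genes took 0.818% and 0.836% of recovered reads in dopamine, against 0.707% and 0.716% in PBS. The mitochondrially encoded subunits of complexes III to V went the other way, with 1.27% and 1.28% in dopamine and 1.66% and 1.66% in PBS. Nearly all of those reads came from mt-Co1 and mt-Cytb, and no other gene of the set had more than 262.03 normalized counts in any library. Of the 6 mitochondrially encoded genes 3 fell and 0 rose. At an unadjusted p under 0.05 the count was 3 as well. mt-Cytb, the cytochrome b of complex III, had 19740.4 and 18672 normalized counts in dopamine, against 23668 and 25653 in PBS (log2 fold change -0.36, SE 0.05, adjusted p = 4.66e-07, limma), and its call held in all 15 alternatives. mt-Co1, the catalytic subunit of complex IV, had 117999 and 123621 in dopamine, against 137360.5 and 142415 in PBS (log2 fold change -0.21, SE 0.04, adjusted p = 1.83e-04, limma). The groups were apart in both genes, but the mt-Co1 call was lost without PBS A or without PBS B.

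Within a library, the mitochondrially encoded partner was therefore lower relative to the nuclear one. The ratio of mt-Cytb to Cyc1 was 25.6 and 20.6 in dopamine, against 46.3 and 43.0 in PBS, and that of mt-Cytb to Uqcrc2 was 7.61 and 7.62 in dopamine against 12.3 and 13.3 in PBS. In complex IV, mt-Co1 to Cox4i1 was 47.1 and 45.9 in dopamine, against 67.5 and 62.3 in PBS, and mt-Co1 to Cox5b was 85.4 and 76.2 in dopamine against 133 and 129.7 in PBS. The groups did not overlap in any of these 4 ratios. Each sets a gene that was lower in both dopamine libraries over one that was higher in both. The separation therefore restates the values above and adds no separate support. mt-Atp6, of complex V, also fell (log2 fold change -0.55, SE 0.17, adjusted p = 0.0138, limma), a call lost in 3 of 15 alternatives. mt-Co2, mt-Co3 and mt-Atp8 did not pass. Counts of mt-Atp6, mt-Co2 and mt-Co3 are uncertain, since 99.5%, 100% and 99.9% of their 50-base stretches occur in other genes, against 51.1% for mt-Co1 and 0% for mt-Cytb.

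**Figure D5:**
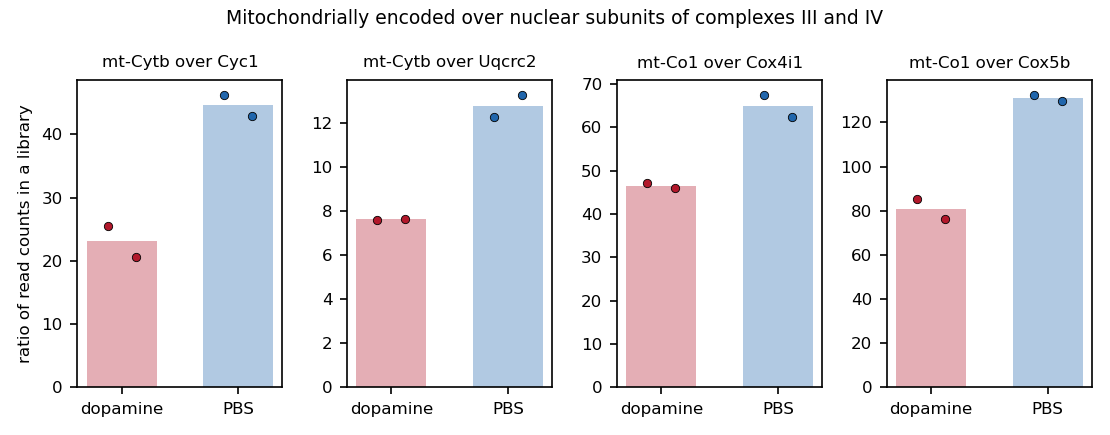
Ratio of read counts of a mitochondrially encoded subunit to a nuclear subunit of the same complex (y axis, from 0) in dopamine (red, left) and PBS (blue, right); bars are means of n = 2 libraries and points are libraries. All 4 ratios lie lower in dopamine, such as 25.6 and 20.6 in dopamine against 46.3 and 43.0 in PBS for mt-Cytb over Cyc1.

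Of the genes listed for electron carriers and related proteins, 5 of 6 tested rose and 0 fell. Cycs, cytochrome c, which carries electrons between complexes III and IV, had 1584 and 1588 normalized counts in dopamine, against 1075 and 971 in PBS (log2 fold change 0.63, SE 0.08, adjusted p = 2.72e-08, limma), and held in all 15 alternatives. Etfa and Etfdh, which pass electrons from fatty acid oxidation to ubiquinone, had log2 fold changes of 0.37 and 0.31, and Coq10b of 0.44. After rescaling only Cycs of the 5 still passed. Of the assembly factors for complex II 0 of 4 passed, and 0 had an unadjusted p under 0.05; for complex III 3 of 6 rose, for complex IV 10 of 21 and for complex V 3 of 4, with 0 lower in each list. Of genes averaging 100 or more, 39.1% rose, so the share in the complex IV list was not far from the background and those of complexes III and V rest on few genes. Uqcc2, needed to make cytochrome b, had 521 and 562 in dopamine, against 297 and 347 in PBS (log2 fold change 0.75, SE 0.11, adjusted p = 4.39e-07, limma), and its call held in all 15 alternatives. In the complex IV list, Lrpprc, which stabilizes mitochondrial mRNAs, Coa7 and Fastkd3 also kept their calls (log2 fold changes 0.40, 0.78 and 0.45), and Sco1, a copper chaperone, had 0.44. Of the complex V list, Atpif1, the inhibitor of the ATP synthase, had 0.33 but -0.023 after the GC and length correction, and Atpaf2 had 0.41 and Tmem70 0.35. After rescaling, 1 of 6, 4 of 21 and 0 of 4 passed as higher in the lists of complexes III, IV and V, and 1 of the complex IV list fell (Cmc1, named after its values were seen).

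Among 12 transcription regulators of these genes, 4 rose and 1 fell, beside 14.3% and 7.0% of all genes. Only 8 of the 12 averaged 100 or more normalized counts, a class in which 39.1% of all genes rose. The share that rose lay between these 2 backgrounds and rests on few genes. Nrf1, a factor that binds many promoters of respiratory genes, had 1024 and 1147 normalized counts in dopamine, against 859.5 and 955 in PBS (log2 fold change 0.26, SE 0.09, adjusted p = 0.0261, limma). Gabpa had 0.21 and Pprc1 0.51. Esrra, the estrogen-related receptor alpha, had 93.3 and 141 in dopamine, against 69.6 and 72.0 in PBS (log2 fold change 0.69, SE 0.19, adjusted p = 0.00562, limma). Ppargc1a, the coactivator PGC-1 alpha, fell to 6.17 and 1.94 in dopamine, against 15.3 and 12.3 in PBS (log2 fold change -1.68, SE 0.55, adjusted p = 0.0240, limma). None of the 4 rises held after rescaling, and the fall of Ppargc1a was lost without dopamine B, without PBS A, without PBS B and with DESeq2. Tfam, which packs mitochondrial DNA, did not pass (log2 fold change 0.13).

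Other mitochondrial and ribosomal sets give a scale for these values. Of 38 genes whose names start with Nduf, leaving out Ndufaf and -ps names, 29 rose and 1 fell, with a median log2 fold change of 0.39. They stand here for complex I, though a name does not show that each is one of its subunits. Of 77 mitochondrial ribosomal proteins 65 rose and 0 fell (median 0.49), and of 90 cytosolic ribosomal proteins 75 rose and 0 fell (median 0.34). After rescaling, 14 of 38, 43 of 77 and 45 of 90 rose and 1, 0 and 3 fell, with medians of 0.19, 0.30 and 0.15. At both scalings the median of complex III was above those of these 3 sets, and that of all 15 complex IV genes was below them. Rescaling shifts every set by about the same amount, so the second order restates the first. On the 11 complex IV genes averaging 100 or more normalized counts, the medians were 0.348 and, after rescaling, 0.152. Those lay just above the cytosolic ribosomal medians of 0.343 and 0.148. The differences were not tested.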

How the data were processed

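Total RNA was turned into libraries by a strand-marking mRNA kit (TruSeq Stranded), per the labels' protocols. Per the submitters' processing notes, the authors used FastQC 0.11.2, TopHat2 2.0.13, HTSeq 0.6, DESeq2, R 3.6.2 and mm10. Neither the annotation nor whether counting used strand is stated (not given in the sources used here), and thus reads of genes that overlap on opposite strands may be mixed; 12 members have such an overlap, and 13 share at least 10% of their 50-base stretches with other genes.

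Per the file headers, the deposited table holds the authors' DESeq2 comparison, with a log2 fold change and its standard error, a Wald score, and p-values raw and adjusted. Its 4 library columns are a signal, the authors' read counts divided by 1 size factor per library (normalized counts). The values came out as whole multiples of 1 read in 100% of cases within a tolerance of 0.01, so reads were recovered. Column numbers differ from the replicate numbers in the titles, so columns were matched to groups only; the letters A and B are names with no pairing. The table had 0 columns of other samples. Within a group, counts differed beyond sampling noise (chi-square per degree of freedom 2.69 for dopamine and 2.09 for PBS), so neither pair was treated as a single library.

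limma 3.58.1 in R 4.3.3 was fitted to log2(value + 1) over all 26207 genes with a mean-variance trend and no filter, 2-sided, with Benjamini-Hochberg adjustment at 0.05. This scale understates fold changes at low values. The limma prior had 42.4 degrees of freedom. Each p-value therefore rests mostly on spread pooled over genes of similar level, and less on the gene's own 4 libraries. Alternatives were edgeR 4.0.16 (quasi-likelihood; TMM, DESeq2 size factors, upper quartile, no filter) and DESeq2 1.42.0 on recovered reads, with edgeR (TMM) calling 2793 of 15329 genes higher and 2426 lower; the pseudocount set to 0.1; only genes averaging 5 or more; TMM scaling; scaling on genes averaging 100 or more normalized counts; a 2-fold minimum; each library left out; the column number as a block; and, chosen after seeing the data, a loess correction for GC content and transcript length over 11479 genes averaging 20 or more. The fits were tested on simulated data. Locations and lengths are from GENCODE M21 (GRCm38), promoters from RefSeq.

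The members, lists and tests were chosen with earlier results of these data known. Genes are named by a rule: all of complex II, Cyc1, up to 6 called members with the smallest p and 2 uncalled members with the highest level per other complex, paralogous or tissue forms, members that fell, and up to 4 called genes per list; members outside it are named to account for all 45.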

Additional observations from a re-analysis of the deposited data

How the results depend on the processing

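Counts and medians depended on scaling more than on the test. Against 31 members higher and 1 lower, the 2-fold minimum left 0 higher. Members called lower numbered 2 with scaling on abundant genes, edgeR TMM, edgeR with DESeq2 size factors and edgeR upper quartile, and 4 after the GC and length correction. The medians of complexes II, III, IV and V were 0.13, 0.40, 0.074 and 0.20 with scaling on abundant genes, 0.22, 0.47, 0.16 and 0.29 with edgeR TMM and again with DESeq2 size factors, 0.14, 0.39, 0.078 and 0.20 with upper quartile, and 0.17, 0.36, -0.038 and 0.19 after the GC and length correction. edgeR without a filter gave 0.56 for complex III. Leaving out 1 library at a time, members higher ranged from 23 (without PBS A) to 30, members lower from 0 (without PBS B) to 1, and the medians from 0.29 to 0.36, 0.49 to 0.70, 0.24 to 0.34 and 0.35 to 0.45; a group left with 1 library was assumed to vary like the other.

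Libraries that share a number in their column names had deviations that correlated at 0.214, but with 2 pairs this does not show pairing. With the replicate block 37 members were higher and 1 lower. Of the 32 calls, 19 held in all 15 alternatives other than the 2-fold minimum (1 of 4 in complex II, 8 of 8 in complex III, 3 of 9 in complex IV and 7 of 11 in complex V). Depth limits the scarce forms Cox4i2, Cox6a2 and Cox7a1. The cause of these differences was not tested.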
